A study of Oryza sativa with 156 samples.

Results

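Leaves of rice (Oryza sativa, cultivar IR64) in the severe drought course were compared with their own irrigated controls on day 10 of drying. The comparison holds 3 drought and 3 control libraries, 6 libraries out of a series of 52 groups of 3 leaf libraries each, and was chosen by the label of course, arm and day. Every plant was of the same cultivar, and seedlings were grown in separate pots fed by an automatic irrigation hose. Watering ended 14 days after sowing in both drought courses, and in the severe course the pots also stood higher than the hose so that water left them faster. Controls stayed irrigated throughout. The moderate course has its own 3 drought and 3 control libraries on day 10, and each course was sampled daily from day 0 to day 12. The labels do not say whether a library is 1 plant or a pool, so whether libraries differ as single plants do is not known. Unless stated otherwise, the p-values below set each difference against a spread estimated over all 52 groups, not over these 6 libraries alone.

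As background, drying soil raises the hormone abscisic acid in leaves, which closes stomata and switches on genes for protective proteins, sugars and transport. Genes for growth, cell division and photosynthesis commonly fall in the same leaves. Rice grows with flooded or moist roots and is among the cereals most sensitive to lack of water. The deposited identifiers could not be paired with gene names, so no role is stated for any gene, and the leaf label was not checked against marker genes.

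The 6 libraries held 10.8 to 23.6 M counts (M, mega), against 6.42 to 26.2 M over all libraries. The drought libraries held 17.4, 23.6 and 11.8 M and the controls 10.8, 11.2 and 13.1 M. The drought libraries correlated with each other at r = 0.979 to 0.985 across genes on the log2 CPM scale (CPM being counts scaled to one library size, with TMM factors), and the controls at 0.968 to 0.975. Control replicate 2 stood farthest from the drought libraries, at r = 0.950 to 0.961, where the other controls reached up to 0.977.

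The libraries of the series fall into a pair of sets that the labels do not name, and on day 10 the arms lie in different ones. The genes that mark the sets are LOC_Os01g57960, LOC_Os01g49370 and LOC_Os06g39708. Their mean level was 6.90, 7.13 and 6.74 log2 CPM in the severe controls and 3.69, 3.84 and 3.32 log2 CPM in the severe drought libraries. The moderate course on day 10 lay at 3.16 to 3.99 log2 CPM, next to the severe drought libraries. Over the series, 49 libraries lay at 6.15 to 7.40 and 107 at 2.68 to 5.35 log2 CPM. On day 10 the drying treatment and the set therefore cannot be told apart from these 6 libraries alone, and each result below is given with what other libraries show.

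**Figure D1:**
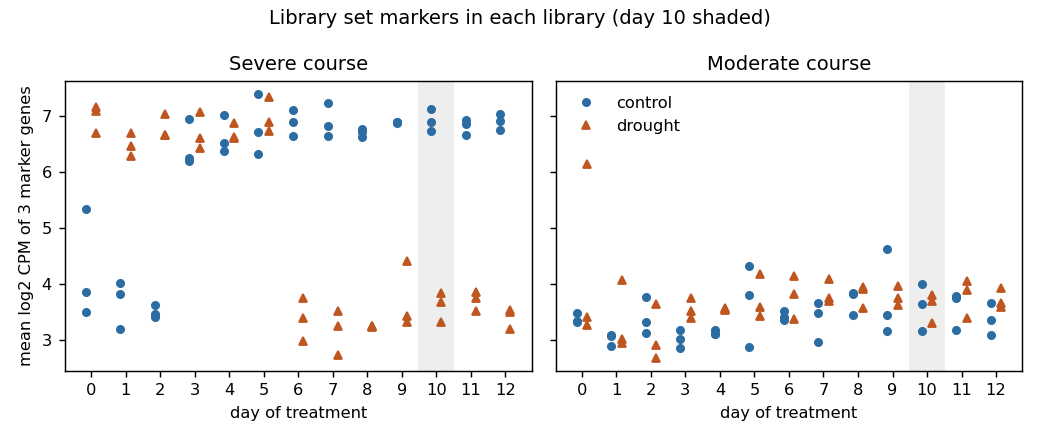
Mean log2 CPM of the 3 marker genes of the library sets (vertical axis) in every library by day of drying (horizontal axis), for the severe and the moderate course, with 1 point per library. On day 10 the severe controls lie at 6.74 to 7.13 and the severe drought libraries at 3.32 to 3.84.

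On day 10, 1735 of 19338 genes tested differed between severe drought and control (8.97%, edgeR quasi-likelihood test, Benjamini-Hochberg adjusted p under 0.05). Of these, 749 were higher in drought (3.87%) and 986 lower (5.1%). In bulk leaf tissue, fewer cells of a type and less RNA per cell cannot be told apart. With the arms in different library sets, the falls were larger than the rises. The median log2 fold change was −0.99 among the genes that fell and 0.60 among those that rose. Of the genes called, 489 falls but 179 rises reached 2-fold. With the set difference, estimated from other days of both courses, taken out, 60 falls and 46 rises did. In the moderate course on day 10, with both arms in the same set, 9 falls and 39 rises did. The share of the set in the larger falls was not tested. The 3 drought and 3 control libraries of the severe course did not overlap in 694 of the 749 risers and 780 of the 986 fallers. Among all genes tested, 11.3% had every drought library above every control and 12.8% every drought library below.

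Falls lay more among weakly expressed genes and rises among strongly expressed ones. Of 5006 genes with a mean under 1 log2 CPM, 279 fell (5.57%) and 83 rose (1.66%). Of 1231 genes at 7 log2 CPM or more, 31 fell (2.52%) and 74 rose (6.01%). The genes that rose took 4.25 to 4.72% of all counts in the control libraries and 5.95 to 6.37% in drought. Those that fell took 3.18 to 4.86% in control and 2.06 to 2.32% in drought.

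**Figure D2:**
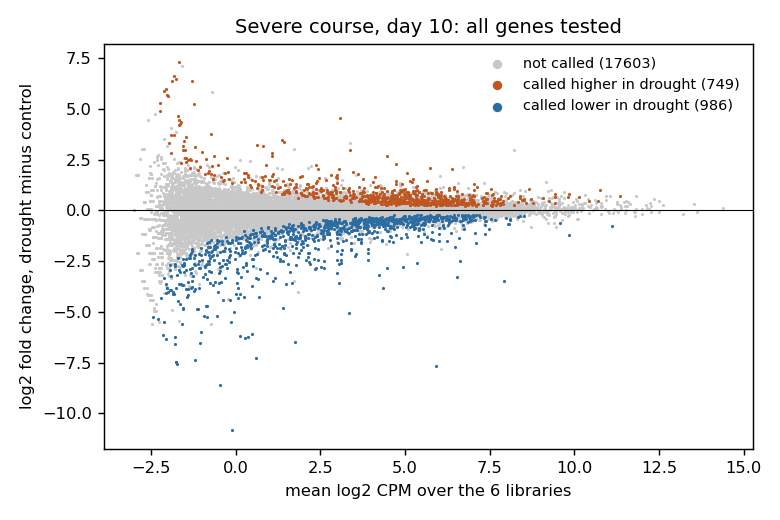
Log2 fold change of severe drought over control on day 10 (vertical axis) against mean log2 CPM (horizontal axis), with 1 point per gene tested and the genes past the adjusted p of 0.05 coloured. The 986 falls reach further from 0 than the 749 rises, mostly at low mean levels, with the arms in different library sets.

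The count rested strongly on replicate 2 of both arms. Control replicate 2 was the control farthest from the drought mean in 1121 of the 1735 genes (64.6%), and drought replicate 2 was the drought library farthest from the control mean in 872 (50.3%). Without control replicate 2, 291 genes were called, 281 of them among the 1735. Without drought replicate 2, 543 were called, 526 of them among the 1735. With either of the other drought libraries or either of the other controls left out, 942 to 2057 were called. A core of 190 genes was called whichever single library was left out, 107 higher and 83 lower, and 94 of them changed at least 2-fold. Of its 83 fallers, 39 were called higher in the higher library set, where 2.22% of all genes tested were. What sets replicate 2 apart was not tested.

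The largest rise among genes with a mean of at least 1 log2 CPM and arms that did not overlap was that of LOC_Os01g47370. It stood at 0.906, 3.58 and 3.02 CPM in control and at 23.1, 144 and 9.63 CPM in drought. Every drought library was above every control, and drought replicate 2 was far above the other two. The log2 fold change was 4.53 (SE 0.90, adjusted p = 0.00054, edgeR). Without drought replicate 2 it was 2.68 (adjusted p = 0.087, edgeR). The gene was also higher on days 3, 5, 7, 8, 9, 11 and 12 of the severe course, and day 10 had the largest difference of the 13 days. On day 9 the log2 fold change was 2.98 (adjusted p = 0.012, edgeR) and on day 11 it was 2.93 (adjusted p = 0.0088, edgeR).

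By the same rule, LOC_Os09g34250 had the next largest rise. Its control libraries stood at 0.272, 1.52 and 1.40 CPM and its drought libraries at 4.40, 28.9 and 2.23 CPM, again with replicate 2 the highest. The log2 fold change was 3.46 (SE 0.80, adjusted p = 0.0025, edgeR), and it was 1.61 (adjusted p = 0.36, edgeR) without drought replicate 2. In the severe course the gene passed the test on no day before day 10, and its log2 fold change was 1.19 on day 9 (adjusted p = 0.40, edgeR). It was higher again on day 11, by 3.47 (adjusted p = 0.0055, edgeR), and on day 12, by 3.85 (adjusted p = 0.014, edgeR). The severe control mean of the gene was 5.90 CPM (day 0), 1.07 CPM (day 10) and 0.352 CPM (day 12). In the moderate course it was called on day 1, at 2.51 (adjusted p = 0.0057, edgeR), and stood at −0.21 on day 10 (adjusted p = 0.96, edgeR).

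Within the same limits on level and overlap, the largest fall was that of LOC_Os09g36680, at 1370, 1844 and 197 CPM in control and 8.23, 1.37 and 7.88 CPM in drought. All drought libraries lay far below all controls, and control replicate 3 was well under the other controls. The log2 fold change was −7.66 (SE 1.98, adjusted p = 0.0070, edgeR), and −7.14 without drought replicate 2 (adjusted p = 0.071, edgeR). The gene was also lower on 8 other days, with −5.79 on day 9 and −6.99 on day 11. In the moderate course it was called lower on 3 of 13 days, but on day 10 it stood at −2.22 there (adjusted p = 0.59, edgeR).

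LOC_Os01g03340 had the next largest fall and held when either replicate 2 was left out. It had 36.1, 50.6 and 9.55 CPM in control and 0.290, 0.0831 and 0.875 CPM in drought, which are 398, 664 and 136 counts against 5, 2 and 11. The log2 fold change was −6.51 (SE 1.31, adjusted p = 0.00059, edgeR), its largest of the 13 days. It was −3.68 on day 9 and −5.31 on day 11, both past the test. With replicate 2 of every group left out it was −5.35 (adjusted p = 0.11, edgeR). Moderate drought on day 10 gave −2.02 (adjusted p = 0.35, edgeR).

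**Figure D3:**
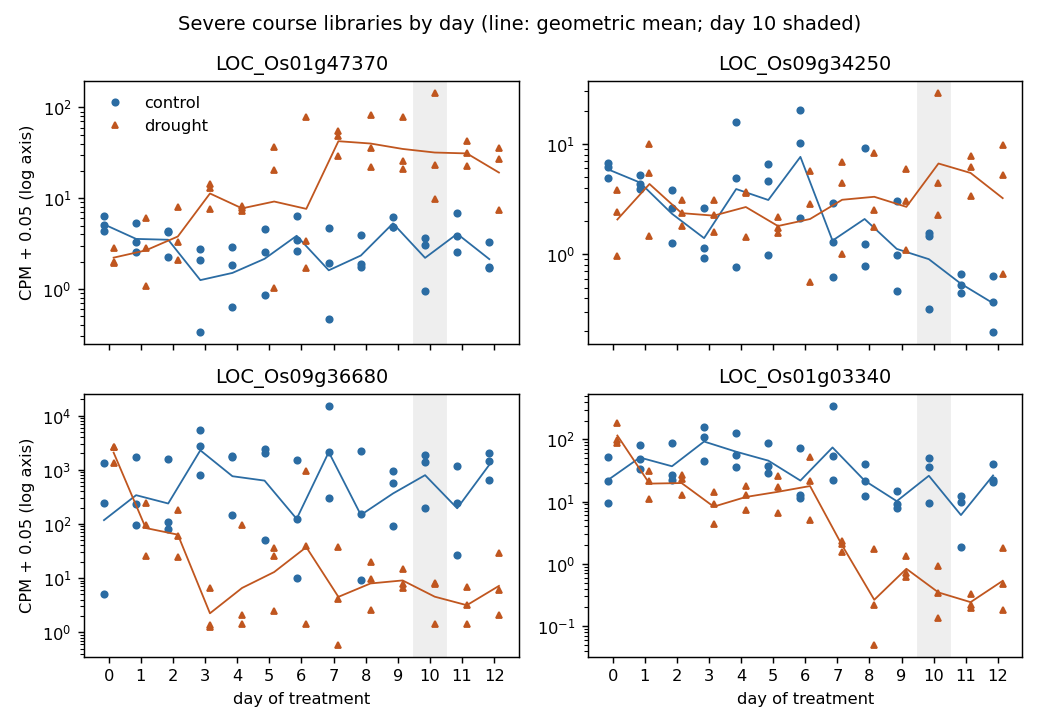
CPM on a log axis (vertical) by day of drying (horizontal) for the 2 largest rises and 2 largest falls on day 10 among genes with a mean of at least 1 log2 CPM and arms without overlap, with 1 point per severe course library. On day 10 the drought and control libraries of each gene do not overlap.

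The 12 largest rises by the same rule ran from 2.02 to 4.53 and the 12 largest falls from −3.18 to −7.66 on the log2 scale. On day 9, 8 of these 12 risers and 6 of the 12 fallers passed the test, and on day 11, 9 and 7 did. Of all genes tested, 11% were called on day 9 and 17.8% on day 11. The fallers include the set markers LOC_Os01g49370 and LOC_Os01g57960 and 1 further gene that follows the sets, which make up 3 of the 6 calls on day 9 and 3 of the 7 on day 11. The markers stand there by the choice of the comparison, and on those days the arms lie in the same sets as on day 10. With the set difference taken out, they were at 0.22 and −0.03. The signs held for all 12 risers on both days, for all 12 fallers on day 9 and for 11 of the fallers on day 11. Among all genes tested, 48.6% were positive and 51.3% negative on day 9, and 48.4% and 51.6% on day 11. Without control replicate 2, 6 risers and 6 fallers were still called, and without drought replicate 2, 8 and 7. In the moderate course on day 10, 11 of each 12 had the same sign, where 48.3% of all genes were positive and 51.6% negative. There, 2 risers and 0 fallers were called by edgeR, with 0.538% of all genes called.

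The neighbouring days of the severe course used other libraries with their own controls, with the arms in the same sets as on day 10. Of the 1735 genes, 761 were called in the same direction on day 8, which is 43.9% of the day 10 list and 32.7% of the day 8 list (12% of all genes were called on day 8). Day 9 shared 711, or 41.0% and 33.4% of the lists, with 11% called. Day 11 shared 693, or 39.9% and 20.2%, with 17.8% called. Day 12 shared 650, or 37.5% and 39.5%, with 8.5% called. Opposite calls numbered 0 on days 8 and 9, 1 on day 11 and 3 on day 12. A group of 305 genes, 119 higher and 186 lower, was called the same way on each of days 8 to 12. In all, 1462 of the 1735 kept their sign on the 4 other days, while 586 passed the test on day 10 and on none of those 4. Among all genes tested, 48.0% to 49.0% were positive on each of those 4 days. The share of all genes that kept 1 sign, or were called, over all of these days was not counted. These counts therefore have no joint share to be set against.

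On days 0, 1 and 2 the arms of the severe course lie in the sets the opposite way round, with drought in the higher one, and on days 6 and 7 as on day 10. On day 0, 3 of the 1735 genes were called in the same direction and 90 in the opposite one (1.31% of all genes were called). The 90 are 5.19% of the day 10 list and 35.6% of the day 0 list, and 74 of them were lower on day 10 and higher on day 0. Day 1 showed 141 genes in the same and 536 in the opposite direction, with 36.3% of all genes called. Day 2 had 117 in the same and 82 in the opposite direction (8.36% called). Day 3 had 289 in the same direction (18.7% called), day 4 had 423 (16.2%) and day 5 had 305 (9.23%). Day 6 had 196 (3.06%) and day 7 had 364 (4.93%). On days 3 to 5 both arms lie in the higher set. Averaged over those 3 days, 773 of the 1735 changed in the same direction (44.6% of the day 10 list) and 43 in the opposite one, with 39.4% of all genes called. Of the core of 190 genes, 104 were called in the same direction on days 3 to 5, and 33 were called in the opposite direction on day 0.

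**Figure D4:**
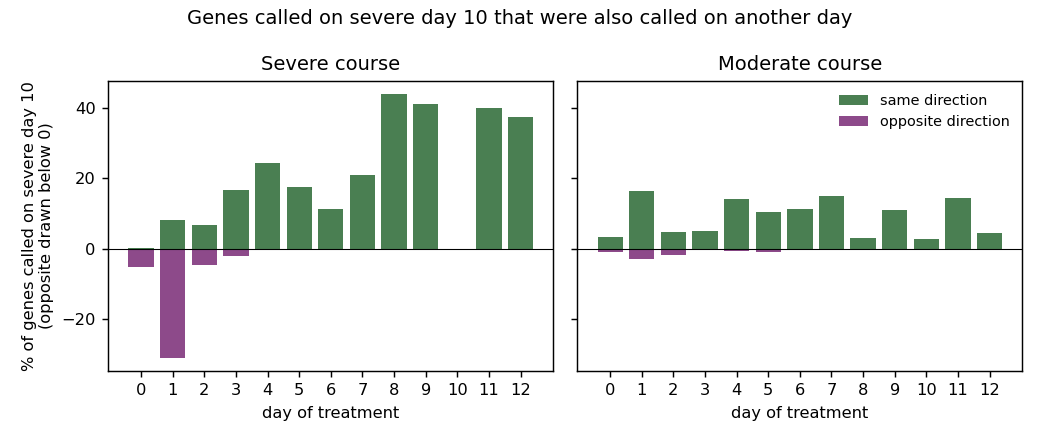
Share of the genes called on day 10 of the severe course that were also called on each other day, for both courses (horizontal axis, day of drying). The vertical axis gives % of the day 10 list, with calls in the opposite direction drawn below 0. In the severe course, same-direction calls are 37.5% to 43.9% on days 8, 9, 11 and 12, and on days 0 and 1 opposite calls outnumber them.

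When the set difference, estimated from other days of both courses, was taken out of the day 10 contrast, 224 genes were called (1.16%), 128 higher (0.662%) and 96 lower (0.496%). Of the 1735, 208 were among them. The medians moved from 0.60 to 0.51 for risers and from −0.99 to −0.67 for fallers. Both contrasts use the same 6 libraries, so these values are no independent evidence of direction. The number of calls depended on the source of the estimate: 7 with the estimate from controls (0.0362%), 488 with that from drought libraries (2.52%). It also depended on replicate 2: 2 genes were called without control replicate 2 and 11 without drought replicate 2.

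The set estimate itself called 630 genes (3.26%), 429 higher in the higher set (2.22%) and 201 lower (1.04%). Of the 19338 genes tested, its part from controls called 1613 and its part from drought libraries 126. Each part also holds any other change in the severe course between the days it compares, beyond that in the moderate course. Of the 986 genes that fell on day 10, 137 were higher in the higher set and 0 lower by edgeR. Of the 749 that rose, 34 were lower in it and 0 higher.

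Among the named genes, LOC_Os01g03340 fell by this contrast too, by −5.55 (SE 1.44, adjusted p = 0.034, edgeR), and LOC_Os05g47700 fell by −3.36 (SE 0.84, adjusted p = 0.029, edgeR). The latter stood at 3.62, 11.4 and 6.04 CPM in control and 1.04, 0.540 and 0.477 CPM in drought, without overlap. LOC_Os02g58210 rose, from 1.90, 2.59 and 1.97 CPM to 7.88, 9.14 and 3.90 CPM, with a log2 difference of 2.19 after the set was taken out (SE 0.52, adjusted p = 0.021, edgeR). LOC_Os04g29680 passed only after the set was taken out, at 2.18 (SE 0.57, adjusted p = 0.035, edgeR), and was 1.18 before (adjusted p = 0.10, edgeR). Its libraries stood at 2.54, 2.52 and 0.983 CPM in control and 4.17, 5.94 and 3.02 CPM in drought. None of these 4 calls held with the estimate from controls alone: the log2 differences were −4.96 for LOC_Os01g03340 (adjusted p = 0.15, edgeR), −3.36 for LOC_Os05g47700 (0.11), 2.39 for LOC_Os02g58210 (0.087) and 1.54 for LOC_Os04g29680 (0.35). With the mean estimate, LOC_Os01g47370 was 3.45 (adjusted p = 0.061, edgeR), LOC_Os09g34250 was 3.18 (adjusted p = 0.064, edgeR) and LOC_Os09g36680 was −6.72 (adjusted p = 0.068, edgeR).

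The fallers were crowded in 2 runs of neighbouring identifiers, found after the values were seen. Of the 72 genes tested whose identifiers begin with LOC_Os02g46, 28 fell (38.9%) and 1 rose, where the median of 422 such blocks with at least 20 genes was 4.43% falling. They lie between LOC_Os02g46080 and LOC_Os02g46970, with a median log2 fold change of −3.00. The mean of the 28 genes was 1.60, 1.34 and 1.13 log2 CPM in the severe controls and −0.57, −0.60 and −0.59 log2 CPM in severe drought. All 28 had a count in each control, and 21 to 22 of them in each drought library. In the moderate course the same mean was −0.66 to −0.39 log2 CPM in both arms.

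The mean of the 28 genes followed the library set across the whole series, though not each gene did. It was 0.34 to 1.76 log2 CPM in the 49 libraries of the higher set (median 1.34) and −0.70 to −0.04 log2 CPM in the 107 of the lower set (median −0.45), without overlap. Of the 28 genes, 15 were called higher in the higher set by the set estimate, against 2.22% of all genes tested. They were picked as fallers on day 10, so the severe libraries of that day part by that choice. On day 0 their median difference was 2.47 in the other direction, with 17 of the 28 called higher in drought. Of all 19338 genes tested, 166 were called higher in drought on day 0. On days 3 to 5, with both arms in the higher set, the median was −0.24. With the set taken out, 0 of the 28 were called by edgeR. In the block LOC_Os04g16, 13 of 39 genes fell (33.3%), with a median of −1.95 on day 10 and 1.32 on day 0, and 0 were called by edgeR with the set taken out. The set difference of the genes in both blocks was not tested for its source.

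**Figure D5:**
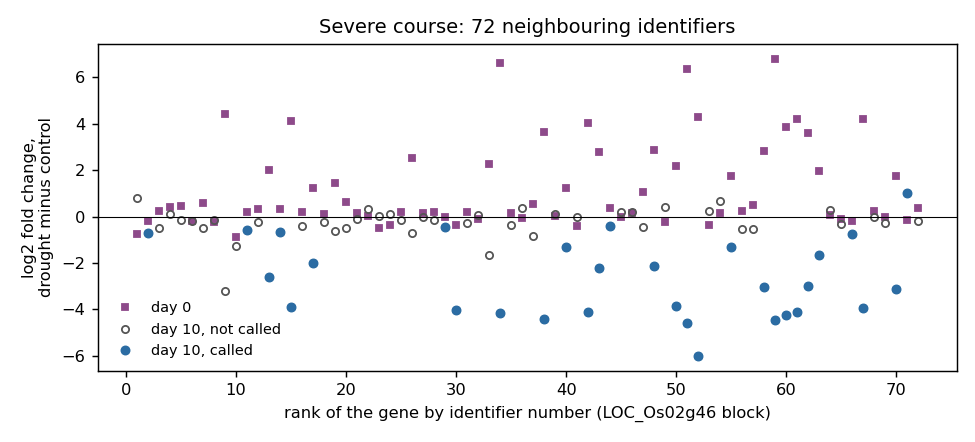
Log2 fold change of severe drought over control on day 10 and on day 0 (vertical axis) for the 72 genes tested of block LOC_Os02g46. Genes are ordered by identifier number (horizontal axis), and those called on day 10 are marked. The 28 genes that fell on day 10 have a median of −3.00 on day 10 and 2.47 on day 0.

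The moderate course on day 10 has both arms in the lower set and shares no library with the severe one. There, 104 genes were called (0.538%), 79 higher (0.409%) and 25 lower (0.129%). Without replicate 2 the count was 1 and without replicate 3 it was 0 (1343 genes at an unadjusted p under 0.05). On these 6 libraries alone edgeR called 0 (1946 at an unadjusted p under 0.05) and DESeq2 383. Of the 104 genes, 49 were called in the same direction in the severe course, 41 higher and 8 lower, and 0 in the opposite direction by edgeR. The 49 are 2.82% of the severe list and 47.1% of the moderate list. Among the 749 severe risers, 679 had a positive moderate fold change (90.7%, against 48.3% of all genes), with a median of 0.27. Among the 986 severe fallers, 847 had a negative one (85.9%, against 51.6%), with a median of −0.28. The core of 190 genes held 163 of the same sign and 16 that were called.

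LOC_Os02g15860 had the strongest shared rise. In the severe course it went from 0.272, 1.37 and 0.772 CPM in control to 4.00, 8.43 and 4.77 CPM in drought, a log2 fold change of 2.81 (adjusted p = 0.0081, edgeR). The moderate libraries went from 1.26, 0.487 and 0.207 CPM to 6.85, 5.11 and 8.03 CPM, a log2 fold change of 3.34 (adjusted p = 0.0094, edgeR). The drought libraries of both courses lay above all of their controls. With the set taken out, the severe difference was 2.43 (adjusted p = 0.15, edgeR). LOC_Os04g48880 rose from 3.08, 4.96 and 4.56 to 26.5, 14.7 and 10.3 CPM in the severe course, by 2.02 on the log2 scale (SE 0.39, adjusted p = 0.00029, edgeR). The moderate libraries rose from 4.55, 6.43 and 3.52 to 12.9, 19.2 and 21.0 CPM, by 1.87 (adjusted p = 0.0031, edgeR). With the set taken out it was 1.61 (adjusted p = 0.043, edgeR), but 1.25 with the estimate from controls alone (adjusted p = 0.29, edgeR).

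The shared falls were smaller. LOC_Os04g30930 stood at 7.07, 11.7 and 6.18 CPM in severe control and 4.17, 3.16 and 4.38 CPM in severe drought, a log2 fold change of −1.11 (adjusted p = 0.0012, edgeR). Moderate libraries stood at 4.03, 5.80 and 7.70 CPM in control and 3.39, 2.35 and 3.58 CPM in drought, −0.93 (adjusted p = 0.046, edgeR). The severe call was lost without control replicate 2 (adjusted p = 0.11, edgeR). LOC_Os01g08120 fell by 0.86 on the log2 scale in the severe course (adjusted p = 0.029, edgeR) and by 1.05 in the moderate course (adjusted p = 0.048, edgeR). With the set taken out, the severe difference was −0.84 for LOC_Os04g30930 (adjusted p = 0.10, edgeR) and −0.43 for LOC_Os01g08120 (adjusted p = 0.56, edgeR).

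The responses of the courses were then compared directly. The severe fold change differed from the moderate one in 13 genes (0.0672%, edgeR), 13 lower (0.0672%) and 0 higher (0%), with 1169 genes at an unadjusted p under 0.05. LOC_Os03g42530 had a difference of −4.53 (SE 0.73, adjusted p = 4.7e-05, edgeR). It stood at 8.25, 8.62 and 8.14 CPM in severe control, and at 1.04, 1.04 and 0.875 CPM in severe drought. In the moderate course it was 0.628, 0.146 and 0.465 CPM in control and 0.817, 1.29 and 1.32 CPM in drought. The severe controls alone were high. In the severe course, the log2 fold change of LOC_Os03g42530 changed sign with the sets of the arms. It was 3.00, 3.86 and 3.69 on days 0, 1 and 2, with drought in the higher set. On days 3, 4 and 5, with both arms in the higher set, it was 0.59, 0.42 and 0.08. From day 6 to day 12, with control in the higher set, it ran from −3.05 to −4.61. Its source was not tested. The 13 genes include the set markers LOC_Os01g49370 and LOC_Os01g57960, whose differences follow from their use as markers and are no result of the test. For LOC_Os01g49370 the difference was −3.69. After the set difference was removed, edgeR called 0 genes (0%), and 881 had an unadjusted p under 0.05.

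Severe and moderate drought libraries of day 10 lie in the same set and were compared without their controls. By edgeR 22 genes differed (0.114%), 14 higher (0.0724%) and 8 lower (0.0414%) in severe drought. LOC_Os09g34250 was higher by 3.89 (SE 0.81, adjusted p = 0.022, edgeR). It stood at 4.40, 28.9 and 2.23 CPM in severe and 0.628, 0.368 and 1.71 CPM in moderate drought, with severe replicate 2 far above the rest. Under 11 alternative settings the difference ran from 1.58 to 5.10, and the call was lost in 6 of them. LOC_Os05g46240 stood at 25.6, 29.8 and 33.5 CPM in severe and 13.7, 10.3 and 10.4 CPM in moderate drought, a difference of 1.37 (SE 0.25, adjusted p = 0.0043, edgeR). The severe controls exceeded the moderate controls in this gene by 1.32 as well (adjusted p = 0.0010, edgeR), and severe drought differed from its own control by 0.36 (adjusted p = 0.39, edgeR).

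Of the genes lower in severe than in moderate drought, LOC_Os05g31760 stood at 8.87, 7.27 and 6.92 CPM against 39.6, 22.9 and 18.6 CPM, a difference of −1.81 (SE 0.42, adjusted p = 0.040, edgeR). LOC_Os07g36465 stood at 6.08, 5.73 and 5.49 CPM against 10.4, 7.55 and 8.57 CPM, a difference of −0.61 (SE 0.15). The groups did not overlap in either gene. Without drought replicate 2 of the severe course, 2 genes were called in all.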

How the data were processed

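PolyA RNA from leaves was sequenced with a directional kit, per the labels' protocols. The authors deposited raw counts of reads per gene. The submitters' processing notes name STAR, featureCounts 2.0.0 and the build IRGSP-1.0. How strand and multiply matching reads were handled is not stated in the sources at hand, so overlapping, antisense or near-identical genes may share counts. Columns were assigned by name, and 4 that match no sample were not used. No columns among the 6 were identical.

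Tests used edgeR 4.0.16 in R 4.3.3: filterByExpr (minimum count 10, minimum total 15, 19338 genes kept), TMM, and a quasi-likelihood model of 52 groups over every library with 104 residual degrees of freedom. Adjustment was by Benjamini-Hochberg over all genes tested, and "called" means an adjusted p under 0.05. SE was derived from the fold change and its F statistic. A prior count of 2 was used for log2 CPM. The set difference is the mean of an estimate from controls (severe days 3 to 5 minus days 0 to 2) and one from drought libraries (severe days 3 to 5 minus days 6 to 8), each beyond the same difference in the moderate course. An exact permutation test of 3 against 3 cannot go below p = 0.1.

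Named genes are those with the largest changes among genes called, with a mean of at least 1 log2 CPM and no overlap between groups, 12 in each direction for the main comparison and 6 for the others. At most 2 rising and 2 falling identifiers are printed for each. The members, the rule and the tests were chosen with earlier results of these data known. Alternatives were DESeq2 1.42.0, its size factors, no filter, the libraries compared alone, a replicate block, a 2-fold minimum and leaving out libraries. The methods were tested on simulated data.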

Additional observations from a re-analysis of the deposited data

Results flagged for a closer look

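The severe and the moderate course differed in their response on day 10 by the interaction test in edgeR for 13 genes, each lower in the severe course. Among them, the difference was −4.53 for LOC_Os03g42530 and −3.69 for LOC_Os01g49370 on the log2 scale. LOC_Os01g49370 is a marker by which the library sets were named, so its difference follows from that choice. In both genes the severe controls stood above the other 3 groups. The severe controls are the one group of these 4 that lies in the higher library set, and with the set difference taken out 0 genes were called by edgeR (881 at an unadjusted p under 0.05).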

How the results depend on the processing

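The 6 libraries give 3 values per arm, and replicate 2 of each arm decides much of the count. Genes called in severe drought minus control numbered 1038 with no filter on low counts, 90 by edgeR and 906 by DESeq2 on the 6 libraries alone, 224 with the library set taken out and 668 with a 2-fold minimum. Leaving out libraries gave 48 to 2057, and 48 was without replicate 2 in all groups. Deviations from the arm means correlated at r = 0.10, −0.33 and −0.07 between same-numbered libraries of the arms. With 3 values per arm, this cannot decide whether the numbers pair the arms. With a replicate block 1905 genes were called, 1734 of them shared with the 1735, and 20 by edgeR with the block on the 6 libraries. DESeq2 size factors gave 1733, 1709 of them shared.

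With the set taken out, the count was 41 with no filter, 7 with the control estimate, 488 with the drought estimate, 106 with a 2-fold minimum and 1 to 92 with libraries left out. The difference between the courses gave 6 to 13 genes with libraries left out. Severe minus moderate drought gave 4 genes with no filter, 81 with a replicate block, 2 by edgeR and 125 by DESeq2 on the 6 libraries, 0 by edgeR with the block on those 6 (1867 at an unadjusted p under 0.05), 9 with a 2-fold minimum and 0 to 21 with libraries left out. The moderate course gave 47 with no filter, 288 with a replicate block, 0 by edgeR on its 6 libraries (1946 at an unadjusted p under 0.05) and 383 by DESeq2, 48 with a 2-fold minimum and 0 to 119 with libraries left out.

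Genes shared with day 10 with no filter numbered 400 (day 8), 357 (day 9), 365 (day 11) and 317 (day 12). With libraries left out they were 30 to 325, 38 to 308, 32 to 555 and 26 to 269. Opposite calls on day 0 were 45 with no filter and 16 to 51 with libraries left out. Of the genes named, LOC_Os01g49370 turned to 0.22 and LOC_Os04g16770 to 0.26 with the set taken out, adjusted p = 0.87 each by edgeR.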

Other observations

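Over the 26 groups of the severe course, the genes whose mean log2 CPM most resembled that of the 4 genes described first (a mean of at least 1 log2 CPM and arms without overlap) were described by Pearson's r, with no test. Groups in the same library set share its difference. The nearest gene reached r = 0.93 for LOC_Os01g47370, 0.79 for LOC_Os09g34250, 0.97 for LOC_Os09g36680 and 0.96 for LOC_Os01g03340. The gene nearest to LOC_Os09g36680 was LOC_Os09g36700, whose identifier is close by, and its own log2 fold change on day 10 was −10.84 (adjusted p = 0.030, edgeR). That nearest to LOC_Os01g03340 was at −0.65 (adjusted p = 0.024, edgeR). Those nearest to the risers were not called on day 10. They stood at 0.48 for LOC_Os01g47370 (adjusted p = 0.23, edgeR) and 0.47 for LOC_Os09g34250 (adjusted p = 0.19, edgeR).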
